A study of Mus musculus with 68 samples.

Results

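Alveolar septa were compared with the vessel compartment of the same kind of mouse lung after 8 months of room air, to ask which RNAs marked each compartment at the later time in the absence of smoke. The 10 arrays were those titled control, room air 8 months, of which 5 measured septa and 5 measured vessel, out of 68 arrays in the series. The series examined mouse lungs exposed to room air or cigarette smoke for 3 or 8 months, with 14 groups that also varied the dose of Fgf10, a growth factor of lung mesenchyme. All 10 samples carried the wild-type entry for Fgf10 expression and the room air entry for treatment. The 8-month arm ended with 1 week with or without doxycycline, and the labels do not say which of these the room air controls received. Neither the age nor the sex of the mice was given in the labels, and a shared protocol text names 3 months of smoke for every sample, against the titles and treatment entries used here. Compartments were cut out by laser microdissection, and their RNA was amplified before hybridisation to 1-colour arrays. Nothing in the labels says that septa and vessel of equal number came from 1 animal, so p-values measure the spread between these samples. Values are log2 intensities, each gene is represented by its brightest probe over all 68 arrays, and differences are septa minus vessel with their standard error (SE), where 1 unit is a factor of 2.

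Alveolar septa are thin sheets of flat type 1 and cuboidal type 2 epithelial cells around a dense capillary net, with few fibroblasts and pericytes. Pulmonary arteries and veins have a coat of contractile smooth muscle, elastic layers and an outer adventitia of fibroblasts, lymphatics and resident immune cells, and in the mouse the larger pulmonary veins are also sheathed by heart muscle cells. Arteries run beside airways, so tissue cut out around a vessel can hold airway epithelium. Because each array measured a mixture of cells, fewer cells of a type and less RNA per cell cannot be told apart here.

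Among 17323 genes tested, 446 (2.57%) were higher in septa and 373 (2.15%) were higher in vessel at a limma Benjamini-Hochberg adjusted p under 0.05. The vessel side held the larger differences: 109 of its genes differed by over 3 log2 units, against 67 of the septa genes. The median difference was -2.43 among genes called for vessel and 2.03 among those called for septa, beside 0.06 over all genes tested. All 5 septa arrays lay above all 5 vessel arrays for 797 genes (4.6%), and the reverse held for 586 genes (3.38%). Of the 819 called genes, 728 had groups that did not overlap. When any 1 array was left out, 350 to 792 genes were called, of which 343 to 621 were also called with all arrays. It fell most without a septa array, to 350 without septa replicate 1, 358 without replicate 2, 496 without replicate 3, 488 without replicate 4 and 525 without replicate 5. All called genes that could be measured in those fits kept their direction.

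**Figure D1:**
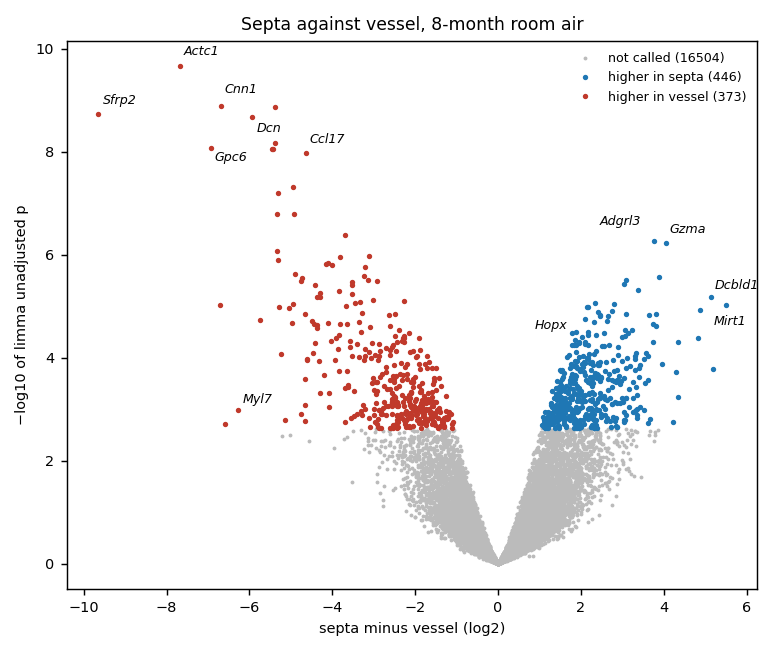
Each point is 1 of 17323 genes, with the septa minus vessel difference in log2 units on the x axis and the −log10 of the unadjusted limma p on the y axis. Blue points are the 446 genes called higher in septa and red points the 373 called higher in vessel, which reach further from 0.

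The median correlation of an array with the others of its own group was 0.882 to 0.903 in septa and 0.788 to 0.832 in vessel. With the arrays of the other compartment it was 0.790 to 0.843 for septa and 0.779 to 0.828 for vessel. Each septa array thus lay closer to its own group, but the vessel arrays did so by little or not at all: vessel replicate 4 correlated at 0.808 with vessel and 0.817 with septa, and replicate 5 at 0.824 and 0.828. Without vessel replicate 4, 430 genes were called for septa and 362 for vessel, and without replicate 5, 327 and 280, beside 446 and 373 with all 10 arrays. The median SD over genes was 0.68 in septa and 0.86 in vessel. Replicate 3 stood apart by sex-linked RNA in both compartments. Xist, the RNA of the inactive X chromosome, read 6.58 there in septa and 4.17 in vessel and at least 13.94 on the other 8 arrays, while the Y-linked Eif2s3y read 11.59 and 9.13 there and at most 7.50 on the others. Without both of these arrays 397 genes were called, 338 of them also called with all 10. Alveolar RNA was present in both compartments: the surfactant gene Sftpc read 15.73 to 15.95 in septa and 15.78 to 15.97 in vessel, close to the highest deposited value of 15.98, so a difference near that limit would not be seen.

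Contractile smooth muscle genes separated the compartments. Of the 21 tested members of a smooth muscle list, 13 were higher in vessel and none in septa, against 2.15% of all genes. The list's median difference was -2.70. Left-out arrays moved the count between 11 and 13. Cnn1, which encodes the actin-binding protein calponin, read 7.39, 7.45, 6.82, 7.89 and 8.29 in septa and 13.63, 14.38, 14.94, 13.86 and 14.49 in vessel. Every vessel array was more than 5 units above every septa array, with a difference of -6.69 (SE 0.38, limma adjusted p = 7.29e-06). Myl9, a regulatory light chain of smooth muscle myosin, read 8.76, 9.02, 9.94, 8.55 and 9.80 in septa and 14.09, 14.52, 14.83, 14.90 and 14.96 in vessel, a difference of -5.45 (SE 0.37). Actg2, a smooth muscle actin, differed by -5.38 (SE 0.31) and Myh11, the smooth muscle myosin heavy chain, by -4.15 (SE 0.46). Acta2, the smooth muscle actin that myofibroblasts and pericytes can also make, had the smallest difference of the 13. It read 12.58 to 13.45 in septa and 14.41 to 15.37 in vessel, a difference of -1.90 (SE 0.34, limma adjusted p = 0.0113), with groups that did not overlap.

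Actins of striated muscle were also among the genes furthest from 0. Actc1, the cardiac actin, read 7.75, 5.86, 6.83, 7.42 and 6.98 in septa and 14.61, 14.68, 14.75, 14.45 and 14.75 in vessel. The SD over the 5 vessel arrays was 0.12, and every one lay above every septa array, and the difference of -7.68 (SE 0.37, limma adjusted p = 3.73e-06) had the smallest p of all genes tested. Acta1, the skeletal actin, read 5.57, 4.43, 5.25, 6.86 and 5.74 in septa and 10.95, 11.24, 11.18, 10.58 and 10.51 in vessel, a difference of -5.32 (SE 0.43). Serum response factor is a transcription factor known to drive many muscle genes through a DNA element called the CArG box. Promoter windows from 250 bases before to 50 bases after the start, taken from RefSeq on GRCm38.p6, were searched for the consensus CArG box, which reads the same on both strands. The box stood in the windows of 230 of 13715 tested genes that had one (1.68%), of 14 of 270 genes higher in vessel (5.19%) and of 4 of 349 genes higher in septa (1.15%). Over the smooth, heart and skeletal muscle lists it stood in those of 6 of 45 tested members (13.3%), and of 2 of 17 for smooth muscle alone (11.8%). Among the members called for vessel it stood in 5 of 18 (27.8%), so most called muscle genes had no such box in this window. These 5 genes were Actc1, Acta1, Myl9, Myl7 and Ldb3, and they were picked out after their values were known. The windows of 4 of them are printed 5′ to 3′ with the box in capitals, to show the element in the genes that had it. Actc1 lies at chr2:114052826-114053125 on the minus strand with its box starting 47 bases before the start site, and Acta1 at chr8:123894726-123895025 on the minus strand with its box 73 bases before. Myl9 lies at chr2:156775214-156775513 on the plus strand with its box 161 bases before, and Myl7 at chr11:5898733-5899032 on the minus strand with its box 61 bases before.
Actc1: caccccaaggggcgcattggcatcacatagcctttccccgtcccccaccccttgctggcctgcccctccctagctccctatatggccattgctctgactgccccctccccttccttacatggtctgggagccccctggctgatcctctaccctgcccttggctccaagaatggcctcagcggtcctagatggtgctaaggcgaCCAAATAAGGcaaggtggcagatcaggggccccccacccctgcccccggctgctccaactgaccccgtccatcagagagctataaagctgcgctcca
Acta1: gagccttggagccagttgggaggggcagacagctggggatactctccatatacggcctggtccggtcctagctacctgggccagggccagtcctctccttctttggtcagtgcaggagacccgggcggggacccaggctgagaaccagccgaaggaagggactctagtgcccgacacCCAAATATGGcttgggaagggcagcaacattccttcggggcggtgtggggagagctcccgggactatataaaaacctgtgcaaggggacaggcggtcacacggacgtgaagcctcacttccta
Myl9: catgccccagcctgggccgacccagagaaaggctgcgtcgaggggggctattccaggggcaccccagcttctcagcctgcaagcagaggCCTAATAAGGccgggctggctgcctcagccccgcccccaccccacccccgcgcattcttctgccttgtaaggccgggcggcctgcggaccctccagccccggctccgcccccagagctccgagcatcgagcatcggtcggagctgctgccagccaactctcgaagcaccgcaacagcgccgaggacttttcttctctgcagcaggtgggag
Myl7: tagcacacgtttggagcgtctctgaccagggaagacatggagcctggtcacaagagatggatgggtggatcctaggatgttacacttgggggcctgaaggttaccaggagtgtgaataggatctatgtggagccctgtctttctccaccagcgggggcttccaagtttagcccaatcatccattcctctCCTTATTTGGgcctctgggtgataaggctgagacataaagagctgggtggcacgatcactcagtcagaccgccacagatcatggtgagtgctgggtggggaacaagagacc
A match describes letters in a window and does not show that a factor bound there.

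Genes of heart muscle proper were high in vessel too, but unevenly between its arrays. Of 21 tested members of a list of pulmonary vein heart muscle genes, 6 were higher in vessel, against 2.15% of all genes. None was higher in septa, and the list's median difference was -2.96. Tnnt2, the cardiac troponin T, read 4.29, 4.27, 3.71, 3.94 and 4.06 in septa and 13.16, 12.31, 10.97, 7.26 and 10.16 in vessel, a difference of -6.72 (SE 0.89, limma adjusted p = 0.00307). Myh6, a cardiac myosin heavy chain, read 6.16, 6.34, 4.23, 6.49 and 6.07 in septa and 15.76, 15.63, 13.26, 5.34 and 12.21 in vessel. Myl7, the atrial myosin light chain, read 5.10, 5.39, 4.70, 4.20 and 4.92 in septa and 14.31, 13.73, 12.40, 5.02 and 10.17 in vessel. For Myh6 and Myl7 vessel replicate 4 lay within the septa range, while the other vessel arrays were at least 4 units above every septa array. Replicate 1 was the highest vessel array for 15 of the 21 genes, and replicate 4 the lowest for 15. Without replicate 4 the list had 10 called genes, the 6 called with all arrays (Actc1, Tnnt2, Myh6, Myl7, Hspb7 and Tnnc1) and Tnni3, Mb, Myl4 and Actn2, which are named for that reason. Without any other single array it had 3 or 4. The members tested fell from 21 to 17 without vessel replicate 1 or 2 and to 18 without replicate 3 or 5, so some left the test. Myh6 and Myl7 were called in 1 of the 10 fits that left out an array. Within the list Actc1 varied little over the vessel arrays and read 14.45 in replicate 4. The smooth muscle myosin Myh11 read 15.21 there and 14.11 to 15.33 on the other vessel arrays. Ldb3, a Z-disc protein of striated muscle placed on the smooth muscle list, followed heart muscle, with 11.29, 10.20, 9.29, 7.42 and 9.12 in vessel and at most 5.79 in septa (difference -5.05, SE 0.68).

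**Figure D2:**
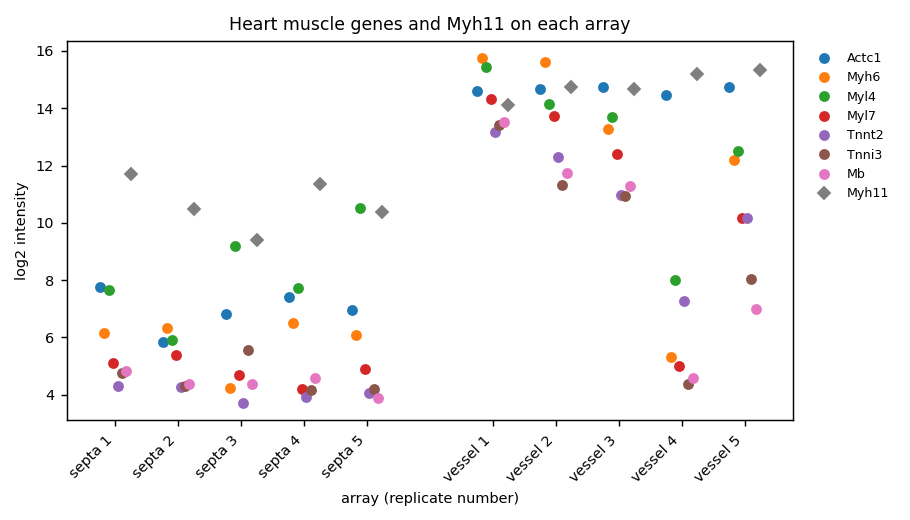
Points give the log2 intensity (y axis) of 7 heart muscle genes and of the smooth muscle gene Myh11 on each of the 10 arrays (x axis, by compartment and replicate). Vessel replicate 4 has Myh6 at 5.34 and Myl7 at 5.02, at the level of septa, but Actc1 at 14.45 and Myh11 at 15.21, at the level of the other vessel arrays.

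Fibroblast and matrix genes were among those higher in vessel. Whether their RNA came from the vessel wall or from airway tissue cut out with it was not tested. Of 18 tested genes of an adventitial fibroblast list, 7 were higher in vessel and none in septa, while 5 of the 18 had a difference above 0. The 20 tested genes of an alveolar fibroblast list had 1 called for septa and none for vessel. Over all genes 2.15% were called for vessel and 2.57% for septa. Sfrp2, a secreted binder of Wnt proteins, had the largest difference of any called gene. It read 4.27, 4.03, 4.28, 4.75 and 4.00 in septa and 11.82, 14.37, 15.46, 13.72 and 14.19 in vessel, a difference of -9.65 (SE 0.57, limma adjusted p = 7.29e-06). The septa mean lay under the 40th percentile of the arrays (5.32), so the difference has no exact size. Dcn, the proteoglycan decorin that binds collagen, read 5.20, 5.88, 6.30, 5.98 and 5.81 in septa and 11.34, 11.96, 12.56, 11.68 and 11.27 in vessel, a difference of -5.93 (SE 0.35). The glypican Gpc6, a cell-surface proteoglycan, differed by -6.94 (SE 0.47) and Serpinf1, which encodes the antiangiogenic protein PEDF, by -4.94 (SE 0.44), both without overlap. Scn7a, a sodium channel, was the alveolar fibroblast gene called. It went the other way, with 9.36 to 11.43 in septa and 7.16 to 8.72 in vessel (difference 2.90, SE 0.47), although only 1 of its 2 probes had that direction.

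Called genes of elastic fibres, collagens and matrix-cutting enzymes lay on the vessel side. Among 22 tested elastic fibre genes 6 were higher in vessel, among 23 collagens 5, among 23 proteoglycans and matricellular proteins 5, and among 23 metalloproteinases and inhibitors 6. None was higher in septa, and 2.15% of all genes were called for vessel. Some of these calls, Fbln1 and Dcn among them, were also calls of the adventitial fibroblast list, so the counts are not separate. Eln, the elastin gene, read 10.25, 11.42, 10.51, 11.64 and 10.56 in septa and 13.44, 14.42, 13.96, 14.47 and 14.22 in vessel, a difference of -3.23 (SE 0.38, limma adjusted p = 0.00169). The fibulins Fbln1 and Fbln2, which bind elastic fibres, differed by -3.53 (SE 0.42) and -4.43 (SE 0.65). Col1a1, a chain of type I collagen, differed by -2.11 (SE 0.35) with the same direction in all 22 of its probes. Mmp3, the protease stromelysin, read 4.30 to 4.49 in septa and 9.67, 10.31, 9.89, 10.89 and 8.02 in vessel, a difference of -5.34 (SE 0.48). Adamts2, which trims procollagen, differed by -3.83 (SE 0.59). With 1 array left out the elastic fibre count was 4 to 7, the collagen count 2 to 5, the proteoglycan count 4 or 5 and the metalloproteinase count 2 to 5. The collagen count was 2 without septa replicate 2 and 3 without septa replicate 1 or 3, and the metalloproteinase count was 2 or 3 without any array other than vessel replicates 3 and 4. The 3 calls for Col1a2, Mmp2 and Pi16, an adventitial fibroblast marker, were lost in at least 9 of the 10 fits without 1 array.

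**Figure D3:**
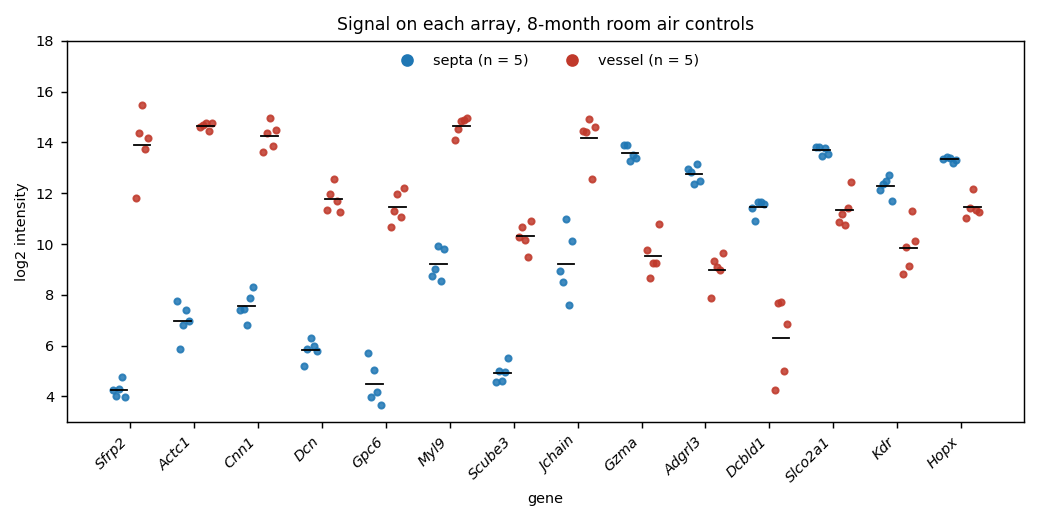
Points give the log2 intensity (y axis) of 14 genes (x axis) on each array, with septa in blue, vessel in red and a bar at the mean of 5 arrays. The 8 genes on the left are higher on every vessel array and the 6 on the right on every septa array.

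Capillary and type 1 epithelial genes marked the septa. A list of general capillary endothelium had 7 of 22 tested genes higher in septa, a list of aerocytes, the large capillary cells of gas exchange, had 5 of 18, and type 1 epithelium had 7 of 22, against 2.57% of all genes, with none of the 3 lists called for vessel. Their median differences were 1.13, 1.19 and 0.89, smaller in size than the median of the smooth muscle list (-2.70). Slco2a1, a prostaglandin transporter, read 13.80, 13.80, 13.46, 13.78 and 13.55 in septa and 10.87, 11.17, 10.73, 11.41 and 12.42 in vessel, a difference of 2.36 (SE 0.36, limma adjusted p = 0.00623). Kdr, the main receptor for vascular endothelial growth factor, read 12.11, 12.38, 12.46, 12.71 and 11.70 in septa and 8.81, 9.87, 9.14, 11.28 and 10.10 in vessel, a difference of 2.43 (SE 0.46, limma adjusted p = 0.0155). Neither gene overlapped between the groups. Aplnr, the receptor of the peptide apelin, differed by 3.23 (SE 0.48), and Car4, a carbonic anhydrase of capillaries, by 2.67 (SE 0.50). Hopx, a homeodomain protein of type 1 cells, read 13.33, 13.44, 13.38, 13.19 and 13.29 in septa and 11.01, 11.41, 12.17, 11.35 and 11.27 in vessel, a difference of 1.89 (SE 0.30). Vegfa, the growth factor that type 1 cells make for capillaries, differed by 1.35 (SE 0.29, limma adjusted p = 0.0254), and its call was lost in 5 of the 10 fits without 1 array. Ager, the receptor that marks type 1 cells, read 15.59 to 15.75 in septa and 15.33 to 15.53 in vessel, near the top of the scale, and did not pass (difference 0.27, SE 0.26, limma adjusted p = 0.601).

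With 1 array left out, general capillary genes called ranged from 5 to 8, aerocyte genes from 2 to 5 and type 1 genes from 2 to 6. The type 1 count was 2 without septa replicate 1 or 2, 3 without replicate 3 and 4 without replicate 4 or 5. The aerocyte count was 2 without septa replicate 1 or 4 and 3 without replicate 2 or 3. Type 2 epithelium, whose marker Sftpc was at the limit in both compartments, had 2 of 23 tested genes higher in septa and none in vessel. The share over all genes was 2.57% for septa. Lpcat1, an enzyme of surfactant lipid synthesis, differed by 1.87 (SE 0.36), with 1 of its 2 probes in that direction.

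Endothelial genes were called on both sides. Cdh5, the junction cadherin of all endothelium, read 14.54 to 15.35 in septa and 12.95 to 14.30 in vessel (difference 1.44, SE 0.36, limma adjusted p = 0.0465), and Tek, the angiopoietin receptor, differed by 1.96 (SE 0.31). On the vessel side, 4 of 17 tested venous and 3 of 18 arterial genes were higher, and 1 arterial gene, Hey1, was higher in septa. Over all genes the shares were 2.15% for vessel and 2.57% for septa. Vwf, the clotting factor stored by endothelium of larger vessels, read 10.78, 11.06, 11.28, 13.41 and 12.55 in septa and 14.41, 14.53, 14.45, 14.55 and 14.70 in vessel, a difference of -2.71 (SE 0.49, limma adjusted p = 0.0124). Septa varied more than vessel for Vwf, with replicates 4 and 5 highest, but stayed below every vessel array. Vcam1, an adhesion molecule for leukocytes, differed by -1.66 (SE 0.29) and Cdh13, an adiponectin-binding cadherin, by -2.49 (SE 0.35). Nos3, the endothelial nitric oxide synthase, read 6.17, 6.62, 6.25, 6.57 and 9.02 in septa and 10.09, 9.93, 9.51, 9.05 and 8.29 in vessel. Its difference was -2.45 (SE 0.58, limma adjusted p = 0.0365), and the groups overlapped through replicate 5 of both compartments. Of the 10 fits without 1 array, the call for Cdh5 held in 1, that for Hey1 in 1 and that for Nos3 in 3, with limma adjusted p up to 0.105, 0.0927 and 0.0952. The venous count was 2 without any one of septa replicates 1 to 4, and the arterial count was 1 without septa replicate 1, 2 or 4. Among lymphatic genes Ccl21a, the chemokine that guides lymphocytes and dendritic cells, differed by -3.51 (SE 0.45), while Prox1, the factor that defines lymphatic identity, differed by -1.25 (SE 0.96) and was not called.

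**Figure D4:**
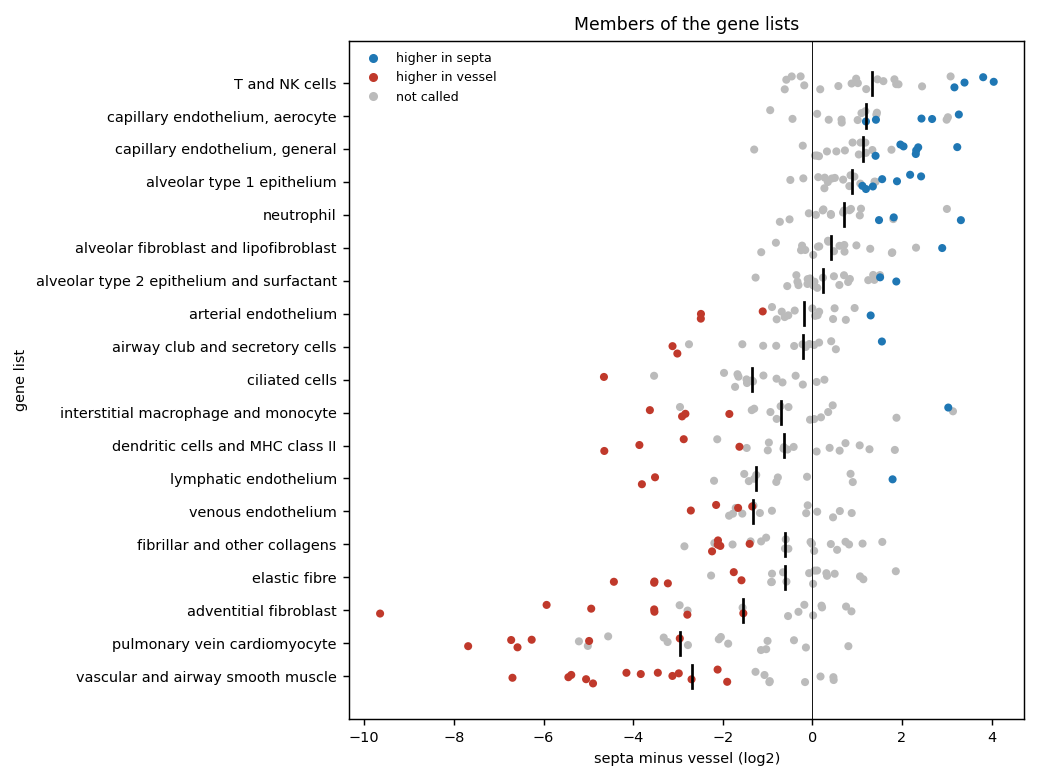
Points are the tested members of 19 gene lists (y axis) by their septa minus vessel difference in log2 units (x axis), with genes called for septa in blue, for vessel in red and not called in grey, and a black bar at the list's median. The smooth muscle median lies at -2.70 and the general capillary median at 1.13.

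Some airway genes were higher in vessel. Cyp2f2, a cytochrome of airway club cells, read 10.90, 10.08, 11.06, 12.33 and 11.64 in septa and 15.32, 14.50, 14.58, 14.31 and 12.91 in vessel, a difference of -3.12 (SE 0.52, limma adjusted p = 0.00894). The secretoglobin Scgb3a2 differed by -3.01 (SE 0.58), and the club cell list had 2 of 15 tested genes higher in vessel and 1 in septa. Shares over all genes were 2.15% and 2.57%. The first club cell marker, Scgb1a1, read 14.53 to 15.58 in septa and 15.97 to 15.98 in vessel, at the limit of the scale, and was not called (limma adjusted p = 0.155). Of 17 tested genes of ciliated cells 1 was called, Dynlrb2, a dynein subunit, which in vessel read 12.37, 11.07, 10.89, 5.94 and 10.55 and whose call held in 2 of the 10 fits without 1 array. Vessel replicate 4, the lowest for Dynlrb2, was also the lowest for most heart muscle genes. The part that airway RNA had in the other vessel differences was not tested.

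Lymphoid cytotoxic genes were higher in septa. Of 22 tested genes of T and natural killer cells 4 were higher in septa, none in vessel, with a median difference of 1.33. Left-out arrays moved the count between 3 and 5. Over all genes 2.57% were called for septa and 2.15% for vessel, to be read beside this and the next lists. Gzma, a killer cell protease, read 13.90, 13.90, 13.25, 13.50 and 13.39 in septa and 9.75, 8.65, 9.26, 9.26 and 10.80 in vessel, a difference of 4.04 (SE 0.41, limma adjusted p = 0.000609). The groups were more than 2 units apart. Il2rb, a receptor chain for interleukins 2 and 15, read 11.83, 11.91, 11.73, 12.56 and 11.36 in septa and 9.40, 8.47, 8.46, 7.73 and 6.28 in vessel, a difference of 3.81 (SE 0.53). Tbx21, the transcription factor T-bet, differed by 3.39 (SE 0.65). Klrg1, a receptor of mature killer cells that was not on the list, differed by 4.34 (SE 0.69). The first members of the list, the T cell receptor subunits Cd3e and Cd3d, differed by -0.58 (SE 0.79, limma adjusted p = 0.733) and 0.58 (SE 0.59, limma adjusted p = 0.632) and were not called. Neutrophil genes had 3 of 19 tested members higher in septa, led by Fpr2, a receptor for bacterial peptides (3.31, SE 0.57), and S100a9, a subunit of calprotectin (1.81, SE 0.35). Alveolar macrophage genes had 2 of 21 tested members higher in septa, Marco and Car4, which was also on a capillary list, and 1 higher in vessel. Marco, a scavenger receptor of alveolar macrophages, read 10.26, 10.23, 9.44, 9.94 and 7.40 in septa and 5.84, 5.55, 4.71, 5.41 and 9.003 in vessel. The replicates numbered 5 went against the rest for Marco, and its call (3.35, SE 0.81, limma adjusted p = 0.039) held in 2 of the 10 fits without 1 array.

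Other immune genes were higher in vessel. Jchain, which joins the chains of secreted antibodies in plasma cells, read 8.93, 8.51, 10.97, 7.60 and 10.12 in septa and 14.47, 14.41, 14.90, 12.55 and 14.60 in vessel, a difference of -4.96 (SE 0.66, limma adjusted p = 0.00307). Ccl17, a chemokine of dendritic cells, read 6.14, 5.38, 5.22, 5.20 and 5.66 in septa and 9.97, 10.52, 9.74, 10.54 and 10.04 in vessel, a difference of -4.64 (SE 0.32, limma adjusted p = 1.89e-05). Both genes had every vessel array above every septa array. Of 16 tested genes of B and plasma cells 2 were higher in vessel, Jchain among them, and 2 in septa. The median difference of that list was 0.17. The shares over all genes, for this and the next lists, were 2.15% for vessel and 2.57% for septa. Timd4, a receptor of tissue-resident macrophages for dying cells, read 3.98 to 4.72 in septa and 11.59, 10.94, 11.77, 9.21 and 6.84 in vessel, a difference of -5.75 (SE 0.82). Of 19 tested genes of interstitial macrophages and monocytes 4 were higher in vessel and 1, Fcgr4, in septa (held in 2 of the 10 fits), and of 19 genes of dendritic cells and antigen presentation 4 were higher in vessel. The 4 vessel calls of the macrophage list, Cd163, Folr2, C1qa and Cd14, were all lost without septa replicate 1, and 1 to 3 were made without any other array. The dendritic count was 2 without septa replicate 1, 2 or 5 and 3 or 4 otherwise. Chemokines and receptors had 6 of 36 tested genes higher in vessel and 3 in septa. Beside Ccl17 and Ccl21a the former held Ccl19 (-2.84, SE 0.54), another ligand of the receptor Ccr7, while Ackr4, a scavenging receptor for the Ccr7 ligands, was higher in septa (2.04, SE 0.36).

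Of the Fgf10 pathway 1 gene was called, and Fgf10 itself was not. Fgf10 read 7.25, 8.41, 8.17, 8.78 and 8.50 in septa and 6.21, 6.11, 4.02, 5.17 and 8.02 in vessel. The groups overlapped, and the difference of 2.31 (SE 0.65) did not pass the threshold (limma adjusted p = 0.0639), with 2 of its 3 probes in that direction. Its receptor Fgfr2 differed by 0.58 (SE 0.41, limma adjusted p = 0.468) and the inhibitor Dusp6 by 1.09 (SE 0.36, limma adjusted p = 0.113), and Etv4, Etv5, Spry2 and Spry4, which respond to the pathway, differed by -0.69 to 0.60 with limma adjusted p of at least 0.472. Among 26 tested genes of the list 1 was called, beside 2.15% of all genes for vessel and 2.57% for septa. It was Fgfr1, another receptor of the family, which was higher in vessel (-2.04, SE 0.52, limma adjusted p = 0.0479). The call for Fgfr1 held in 2 of the 10 fits without 1 array. Nos2, the inducible nitric oxide synthase, read 8.00, 7.39, 7.82, 8.24 and 8.73 in septa and 9.44, 9.09, 9.57, 9.70 and 9.49 in vessel, so every vessel array was higher. Its difference was -1.42 (SE 0.33, limma adjusted p = 0.0327), and the call held in 2 of the 10 fits without 1 array.

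The vascular endothelial growth factor and angiopoietin list had 5 of 19 tested genes higher in septa, against 2.57% of all genes, with Angpt1, a ligand of Tek, beside Kdr, Tek, Cdh5 and Vegfa, and 2 to 4 when 1 array was left out. The count was 2 without any one of the septa arrays and 3 without vessel replicate 2 or 5. Of 31 tested genes of bone morphogenetic protein and transforming growth factor signalling 4 were higher in vessel, against 2.15% of all genes. Gdf10, a secreted member of that family, read 4.50, 6.18, 6.03, 5.07 and 4.91 in septa and 10.49, 10.39, 10.39, 9.69 and 10.51 in vessel, a difference of -4.96 (SE 0.40, limma adjusted p = 7.67e-05), although its other probe had the opposite direction. Beside Sfrp2 for vessel, the Wnt list of 33 tested genes had 1 call for septa, with shares of 2.15% and 2.57% over all genes. It was Lef1, a transcription factor of that pathway (2.88, SE 0.63, limma adjusted p = 0.0279), whose call held in 4 of the 10 fits without 1 array. Regional transcription factors had 3 of 36 tested genes higher in septa and 1 in vessel, beside 2.57% and 2.15% of all genes. Tbx3, a repressor of the T-box family, read 12.43 to 12.69 in septa and 8.73, 11.10, 10.81, 9.80 and 9.86 in vessel (difference 2.47, SE 0.44), and Osr1, a factor of early lung mesenchyme, differed by -4.29 (SE 0.55). Ion channels had 3 of 31 tested genes higher in vessel and 1 in septa, beside 2.15% and 2.57% of all genes. Among the former Kcna5, a voltage-gated potassium channel of pulmonary artery and atrial muscle, read 9.15, 11.35, 9.59, 5.18 and 9.14 in vessel and at most 4.94 in septa. Kcna5 passed the filter only through 4 vessel arrays, the group where it was high. It could be tested in 6 of the 10 fits without 1 array and was called in those 6. With 1 array left out, 1 to 3 genes of the growth factor, 1 to 3 of the transcription factor (for septa) and 1 to 3 of the ion channel list (for vessel) were called. Lists of circadian clock genes (16 tested), adipocytes (11), mast cells (5) and airway basal cells (8) had no called gene. Most of the 14 mast cell genes listed were too low on these arrays to be tested.

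Many of the largest differences towards septa lay outside any list. Adgrl3, an adhesion receptor of the latrophilin family, read 12.96, 12.82, 12.34, 13.13 and 12.48 in septa and 7.89, 9.32, 9.10, 8.99 and 9.64 in vessel. Its difference of 3.76 (SE 0.38, limma adjusted p = 0.000582) had the same direction in all 7 of its probes. Dcbld1, a transmembrane protein, read 11.42, 10.90, 11.65, 11.66 and 11.59 in septa and 4.24, 7.70, 7.73, 5.02 and 6.85 in vessel, a difference of 5.14 (SE 0.66). The long noncoding RNA Mirt1 had the largest called difference towards septa (5.50, SE 0.73), with 2 of its 3 probes in that direction. Chst2, a sulfotransferase, differed by 4.88 (SE 0.67). Sox11 and Satb1, both nuclear regulators, differed by 4.34 (SE 0.92) and 4.22 (SE 1.05), with vessel arrays from 3.67 to 9.08 and from 3.61 to 9.91. Their calls held in 6 and 2 of the 10 fits without 1 array. Among the largest differences towards vessel, Penk, the precursor of enkephalin peptides, differed by -5.44 (SE 0.37), with 1 of its 2 probes in that direction. Scube3, a secreted signalling protein, differed by -5.38 (SE 0.36), with all 4 probes in that direction, and Rbm24, a splicing factor of muscle, by -5.34 (SE 0.56). Of 51 genes called for septa the vessel mean lay under the 40th percentile, and of 88 called for vessel the septa mean did, so those differences have no exact size.

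Of the other groups of septa and vessel arrays in the series, 2 sets of 10, which shared no array with these, were used for the same contrast. In wild-type mice after 3 months of room air, 469 of 18342 genes were called, and in controls after 8 months of smoke, 194 of 17515. Of the genes called for septa here, 423 of 443 that were measured at 3 months had the same sign there (95.5%), as had 310 of 350 called for vessel (88.6%), beside 68.2% of all genes. Under smoke these shares were 406 of 445 (91.2%) and 334 of 360 (92.8%), beside 62.3%. Calls in common numbered 131 with the 3-month arrays, 16% of those here and 27.9% of those there, and 72 with the smoke arrays, 8.79% of those here and 37.1% of those there. The smooth muscle median was -2.64 at 3 months and -2.47 under smoke, beside -2.70 here. For the heart muscle list the medians were -1.66 and -0.36, beside -2.96 here, and Myh6 differed by -4.53 and -2.40, beside -6.58. Timd4 differed by -0.72 at 3 months and -2.53 under smoke, beside -5.75 here, and Gzma by 4.74 and 3.92, beside 4.04.

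**Figure D5:**
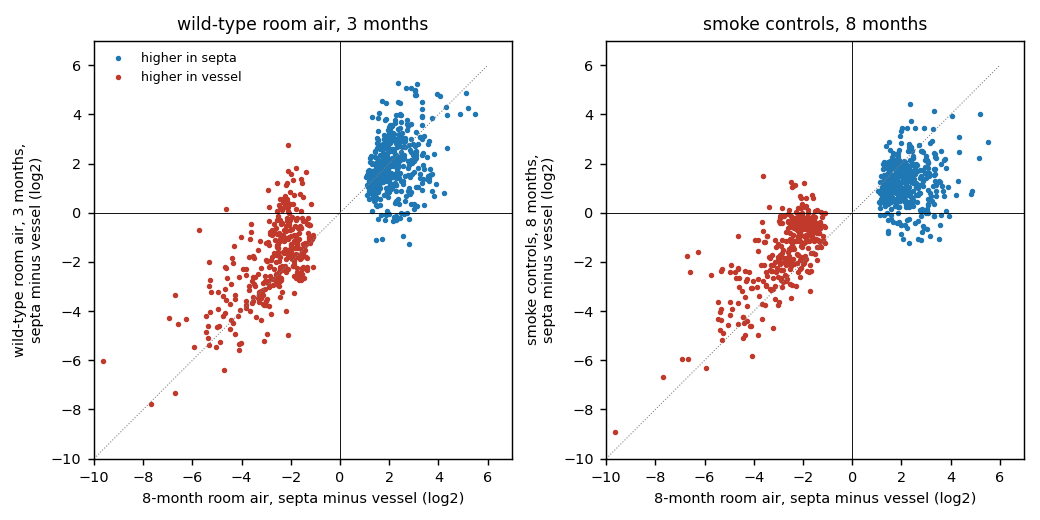
Points are the genes called in 8-month room air, with that septa minus vessel difference on the x axis and, on the y axes, the difference in wild-type room air at 3 months (left) and in smoke controls at 8 months (right), all in log2 units. Genes called for septa are blue and for vessel red, and the dotted line marks equal differences, with 95.5% of the septa genes above 0 on the left and 91.2% on the right.

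The change of the contrast itself was tested in fits of 20 arrays. Between 8-month and 3-month room air the difference changed for 1 of 20322 genes (0.00492%), with 1676 at an unadjusted p under 0.05. This was Tuba8, an alpha tubulin, with means of 9.13 in septa and 8.56 in vessel at 8 months and 8.95 and 4.79 at 3 months, a difference of differences of -3.59 (SE 0.54, limma adjusted p = 0.0361). The 2 times differed in their vessel means. The count ranged from 0 to 36 without 1 array, with 36 without replicate 1 and 11 without replicate 4 of the 3-month vessel arrays, and was 0 under several other settings. Between 8-month room air and 8-month smoke no gene of 19538 (0%) passed in limma, with 1473 at an unadjusted p under 0.05 and 2 called with array weights. Mcpt4, a mast cell protease, had the smallest p, with vessel means of 4.69 in room air and 9.53 under smoke and septa means of 4.48 and 4.90 (4.43, SE 0.72, limma adjusted p = 0.098). Cma2, a chymase of the same family, came next, with vessel means of 7.99 and 11.17 (4.18, SE 0.72, limma adjusted p = 0.1). Neither passed the threshold, and an absence of a change is not shown by these counts.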

How the data were processed

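RNA of laser-microdissected septa and vessel was measured on 1-colour arrays of 62976 features. The values are log2 intensities deposited by the authors, ranging from 3.27 to 15.98, and per the submitters' processing notes limma was used, without a version. Arrays differed by at most 0.00352 at any percentile, so the deposited log2 values were already quantile normalised. The labels name neither a background correction nor a scan date or slide. For arrays, their number limits the precision.

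Groups came from sample titles. The platform annotation and RefSeq names left 43941 features with 1 gene name, for 24306 names, and each gene took its probe with the highest mean over 68 arrays. A gene was tested if it exceeded the 40th percentile of its array on at least 4 of the arrays fitted. The 10 arrays alone were fitted with limma 3.58.1 (lmFit and eBayes) in R 4.3.3, two-sided, with Benjamini-Hochberg adjustment over all genes tested and a threshold of 0.05. The change of the contrast was an interaction term in fits of 4 groups. Tested on simulated data of this comparison with 50 genes changed at each size, the fit recovered 2, 22, 50 and 76% of changes of 1, 2, 3 and 4 log2 units. It also called 10 genes that had been given no change. Far fewer genes changed there than the 819 called in the data, and the noise was independent between genes. The recovered shares therefore need not hold for the data.

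Genes open to naming were the 15 largest called differences without overlap in each direction, up to 4 called members per direction and the first 2 members of each of 47 lists, 8 followed genes, the 5 largest or smallest-p genes of each interaction, and up to 5 called smooth muscle genes with a CArG box. Members and lists were chosen with earlier results of these data known. The third arrays were left out as an alternative chosen after seeing the data.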

Additional observations from a re-analysis of the deposited data

Results flagged for a closer look

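In these single-array cases 1 of 5 arrays stood far from the other 4, by Dixon's 95% limit, for a gene named in the text. This happened in 24 of 208 groups of 5 examined, and chance flags about 1 in 20. In vessel replicate 4 the low values were Dynlrb2 at 5.94, Gdf10 at 9.69, Jchain at 12.55, and the high values were Car4 at 10.17, Etv5 at 12.23 and Prox1 at 10.32. In vessel replicate 5 Marco stood high at 9.003, Scn7a at 8.72 and Spry4 at 8.72, and in septa replicate 5 Marco stood low at 7.40 and Nos3 high at 9.02. In vessel replicate 2 Folr2 was low at 4.25 and Lef1 high at 6.20, in vessel replicate 1 Fbln2 was low at 6.40, and in vessel replicate 3 Etv4 was low at 8.51. In septa replicate 4 Lpcat1 was high at 11.02 and Rbm24 at 6.89, in septa replicate 3 Myh6 was low at 4.23, in septa replicate 2 Ntrk3 was high at 7.51, in vessel replicate 1 Hspb7 was high at 12.20, and in septa replicate 1 Vegfa was low at 15.19. For the sex-linked genes the third arrays stood apart: Xist read 6.58 in septa and 4.17 in vessel, and Eif2s3y read 11.59 in septa.

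The septa minus vessel difference of Tuba8 changed by -3.59 between 3-month and 8-month room air in a tested interaction (limma adjusted p = 0.0361).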

How the results depend on the processing

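All 819 called genes kept their direction with no filter, centred arrays, array weights, a variance trend with robust estimation, the replicate block and, where measured, the stricter filter, the fits of all 14 groups and each left-out array. The mean of all probes kept it for 800 of 808. Calls ranged from 177 to 1094. The replicate block, with fewer residual degrees of freedom, called 118 genes for septa and 130 for vessel (248, of which 235 were also called without it). The same-numbered arrays' deviations correlated at -0.05 to 0.23, and the labels name no pairs, so the main fit did not pair the numbers. Of 5 septa arrays 1, replicate 3, correlated best with its own number (0.229). Replicate 3 was also the array low in Xist in both compartments, at 6.58 in septa and 4.17 in vessel. Whether equal numbers came from 1 animal was not tested, and the count of calls depends on it. In the block neither interaction had a called gene. The fit of all 14 groups called 50 for septa and 127 for vessel (177), and 451 and 380 (831) without 3 arrays of low correlation, all outside these groups. A variance trend with robust estimation called 660 for septa and 434 for vessel (1094). Without the third arrays 211 and 186 genes were called. With 1 array left out, 184 to 430 genes were called for septa and 166 to 362 for vessel. The interaction with 3 months had 2 calls with the mean of all probes and with the stricter filter, 0 with centred arrays, array weights, a variance trend with robust estimation, the block and all 14 groups, and 0 to 36 without 1 array. The interaction with smoke had 2 with array weights and 0 to 1 without 1 array. Of 83 called genes named, 58 were called in each of the 10 fits without 1 array and 21 in fewer than 5. With the mean of all probes Ager turned to -0.15 and Spry2 to -0.31, and neither was called. The causes of these changes in the counts were not tested.

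Differences near the highest deposited value of 15.98, or against a mean under the 40th percentile of 5.32, have no exact size.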

Other observations

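Some called genes outside every list were picked after their values were seen. Ntrk3, the neurotrophin receptor TrkC, read 4.17, 7.51, 4.02, 4.95 and 4.75 in septa and 9.21, 9.49, 10.79, 11.89 and 10.40 in vessel, a difference of -5.28 (SE 0.71, limma adjusted p = 0.00321). Prg2, the major basic protein of eosinophils, read 3.82 to 5.16 in septa and 8.69, 9.03, 11.28, 8.01 and 8.62 in vessel (-4.75, SE 0.57, limma adjusted p = 0.0017). Both had every vessel array above every septa array. Hamp, the gene of the iron hormone hepcidin, read 3.63 to 4.66 in septa and 12.87, 11.98, 8.82, 5.66 and 6.26 in vessel, with replicates 4 and 5 lowest. Its call, for a difference of -5.15, held in 2 of the 10 fits without 1 array. On the septa side Klra1, a receptor of the Ly49 family of natural killer cells, read 8.77, 10.41, 10.43, 10.01 and 9.31 in septa and 4.47, 5.32, 7.75, 6.42 and 6.29 in vessel (3.74, SE 0.59, limma adjusted p = 0.00725).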
